A study of Mus musculus with 8 samples.

Results

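Immunoglobulin V genes were taken as every feature whose symbol starts with Ighv, Igkv or Iglv, which gave 348 of the 32285 features: 185 heavy-chain, 160 kappa and 3 lambda V genes. An antibody is made of heavy and light chains, and each chain starts with a variable region encoded by a V gene that a developing B cell joins to a D and J or a J segment. Most B cells express a single heavy and a single light V gene, kappa or lambda, and pass both on to the cells of their clone. A B cell carries its receptor in the membrane and makes little of it, whereas a plasma cell secretes antibody and fills its RNA pool with a single heavy and a single light transcript.

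The study profiled leukocytes, sorted as CD45+ after CD45.2 staining, from the submandibular gland, a salivary gland, and from its draining lymph nodes in mice of genotype SS and control (4 mice each, about 12 weeks old). The labels list 1 expression sample for SS gland, control gland, SS lymph node and control lymph node, do not spell out SS, name no strain, and do not say how animals were pooled. The 4 expression libraries carry the names C1 to C4, and no label ties any of them to a genotype or a tissue. Every value below therefore describes a library; there were no replicates, and neither genotypes nor tissues were compared or tested.

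A barcode was kept if it had 500 or more unique molecular identifiers (UMIs, each counting 1 captured RNA molecule), 300 or more genes and a mitochondrial share no higher than 10%. C1 kept 5616 barcodes, C2 5067, C3 8532 and C4 5957, and any pair of libraries shared between 31 and 85 barcode sequences. A kept barcode was called B with at least 3 UMIs of Cd79a plus Cd79b, the signalling partners of the B cell receptor, and fewer than 50 of Jchain, which joins IgA and IgM units. It was called plasma with at least 50 Jchain UMIs and at least 3 of Mzb1, a chaperone of antibody assembly. From C1 to C4 the B gate held 66, 14, 759 and 2024 barcodes, and the plasma gate held 44, 22, 46 and 5. The B cell genes Ms4a1, Cd22, Pax5 and Ighd, which the gate did not use, were all detected in the B barcodes of every library. The B barcodes of C1 and C2 also carried salivary epithelial markers, at a summed 5603.8 and 11563.5 CPM (UMIs per 1000000 UMIs of the gate), against 4.41 in C3 and 3.71 in C4. Mucl2, a secreted salivary product, made up 5539.7 and 11543 CPM of this, while Krt8 was at 0 in both and Epcam at 7.39 and 0. Their summed macrophage markers were 1831 and 7739.7 CPM, against 47.6 and 4.84. No macrophage marker was found in more than 13.6% of C1 or 21.4% of C2 B barcodes, whereas Mucl2 was found in 100% of both. The part of other cells' RNA in the V counts of these small B sets was not tested.

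The leading V gene of a chain was the gene with most UMIs in a barcode, with at least 2 UMIs and no tie. Of the 348 V genes, 97 had no UMI in any barcode of any library, 195 led at least 1 B or plasma barcode, and 153 led none. The RefSeq table for the mm10 build placed 344 members, the exceptions being 4 that share 2 symbols. Of the placed members, 120 were annotated as pseudogenes, and 9 of these led 72 barcodes in all. Ighv7-3 led 32 of them and Igkv14-126 led 26, and these 2 genes were singled out after their values were seen. Plasma barcodes led by Ighv7-3 were found in C1 (1), C2 (1) and C3 (2).

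V UMIs separated the gates by orders of magnitude. In B barcodes the median was 12 heavy and 40 light V UMIs in C1, 4 and 23 in C2, 11 and 38 in C3, and 9 and 33 in C4. In plasma barcodes the medians were 6719 and 10488 in C1, 8000.5 and 12440 in C2, and 3987.5 and 6860.5 in C3. The 5 plasma-gate barcodes of C4 had medians of only 69 and 215. From C1 to C4, V genes took 50.7%, 54.0%, 37.1% and 0.538% of all UMIs of plasma barcodes, against 0.401% to 1.18% in B barcodes. Median total UMIs differed in the same direction, from 3976 to 5573 in B barcodes and from 33506.5 to 59699 in plasma barcodes.

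**Figure D1:**
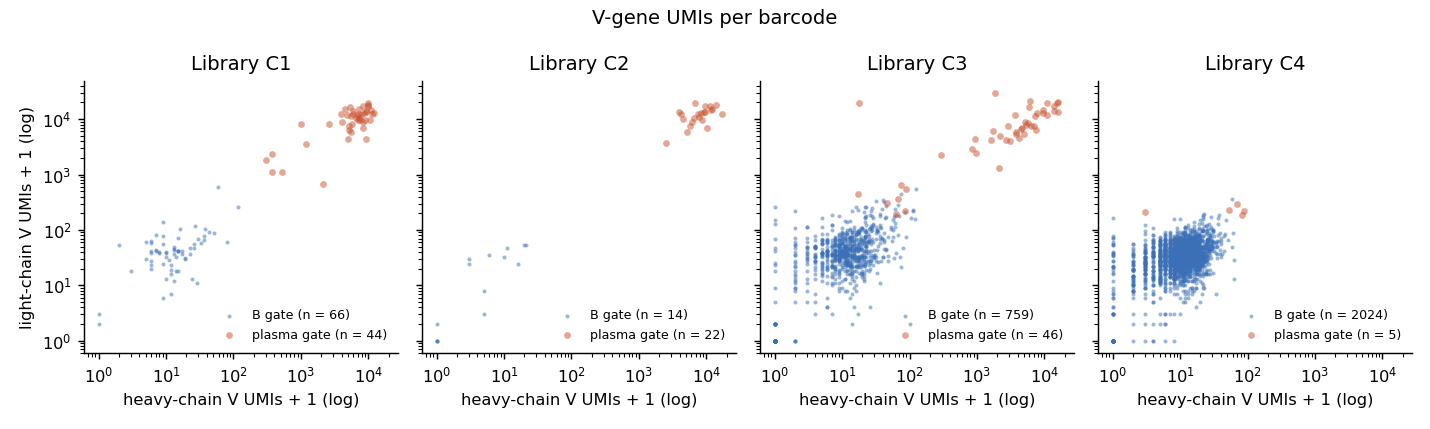
Heavy-chain (x) against light-chain (y) V UMIs of each barcode, plus 1, on log axes, 1 panel per library; small blue points are B barcodes and larger orange points plasma barcodes. Plasma barcodes of C1 and C2 lie apart from the B barcodes, while those of C4 (n = 5) and some of C3 lie near the B barcodes.

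The plasma gate mixed barcodes of different kinds, a split that was seen in the data and then described. Ms4a1 encodes CD20, a surface protein of B cells that plasma cells lose. Of 117 plasma-gate barcodes, 11 had at least 10 Ms4a1 UMIs, 7 of them in C3 and 4 in C4. Their heavy V UMIs ran from 2 to 88 and their Jchain UMIs from 50 to 97. All 11 had no UMI of Sdc1, the plasma cell surface proteoglycan CD138, and at least 10 UMIs of Mki67, a gene of dividing cells. Of the 106 plasma-gate barcodes with fewer than 10 Ms4a1 UMIs, 8 had no Sdc1 UMI and 10 had at least 10 Mki67 UMIs. The other barcode of C4 had 5 Ms4a1, 45 Mki67 and 89 heavy V UMIs, so no plasma-gate barcode of C4 had the V level seen in C1 and C2. In C3 the 39 barcodes with fewer than 10 Ms4a1 UMIs had a median of 5004 heavy and 7630 light V UMIs and a median V share of 48.4% of a barcode's UMIs.

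**Figure D2:**
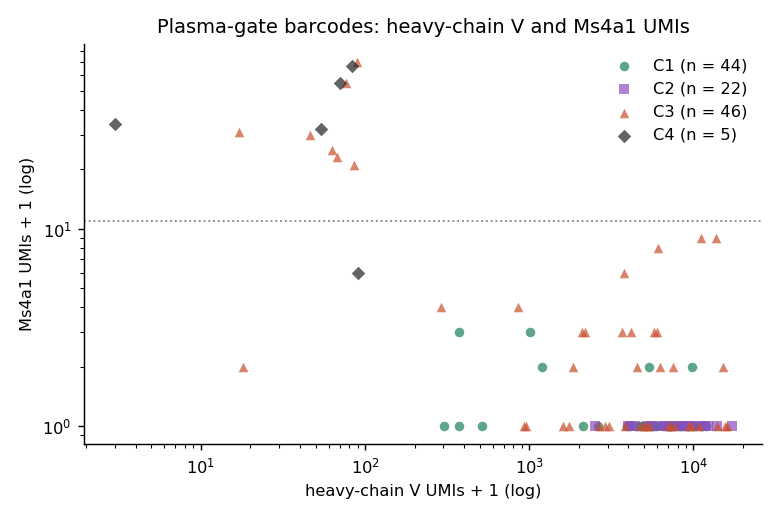
Heavy-chain V UMIs (x) against Ms4a1 UMIs (y) of the 117 plasma-gate barcodes, plus 1, on log axes; marker shape and colour give the library, and the dotted line is at 10 Ms4a1 UMIs. The 11 barcodes above the line have at most 88 heavy V UMIs.

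The ratio of V to constant-region UMIs was higher in plasma than in B barcodes of every library, and by least in C4. Heavy V UMIs summed to 1.78 times those of the 8 heavy constant genes in C4 B barcodes, 1.86 times in C3, 1.3 times in C2 and 2.53 times in C1. In plasma barcodes of C1 to C3 they summed to 4.74, 6.38 and 4.91 times, but in the 5 of C4 only to 1.93 times. For light chains the ratio of V to Igkc plus Iglc UMIs was 2.13 in C4, 2.7 in C3, 3.77 in C2 and 3.47 in C1 B barcodes, and 9.26, 10.8, 9.34 and 4.17 in plasma barcodes of C1 to C4. Light V UMIs exceeded heavy V UMIs in 94.1% of C4 B barcodes and 88.1% of C3 B barcodes, and in 39 of 44, 20 of 22 and 43 of 46 plasma barcodes of C1, C2 and C3. The median light over heavy ratio was 3.56 in C4 and 3.79 in C3 B barcodes, and 1.64, 1.46 and 1.66 in plasma barcodes of C1 to C3. In those of C4 it was 4.2, above the B barcodes. These ratios depend on which part of the transcript was captured, and no source used here names the capture end.

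Every plasma barcode and most B barcodes received a leading gene. Both chains were assigned in all plasma barcodes of every library, in 62 of 66 B barcodes of C1 (93.9%, 95% interval 85.2 to 98.3), 672 of 759 in C3 (88.5%, 86.1 to 90.7) and 1873 of 2024 in C4 (92.5%, 91.3 to 93.6). In C2 only 9 of 14 were assigned. Intervals throughout are exact Clopper-Pearson intervals, and they cover counting error alone and say nothing of the spread between animals. Among C3 B barcodes with at least 3 UMIs of the T cell genes Cd3d, Cd3e and Cd3g the share was 64.1% (66 of 103), against 92.4% (606 of 656) among the others.

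Heavy-chain usage in B barcodes was led by the Ighv1 family, the largest mouse heavy-chain family, with 93 of the 185 heavy members here. Ighv1 genes led 50% of assigned B barcodes in C1 (31 of 62, interval 37.0 to 63.0), 55.5% in C3 (376 of 677, 51.7 to 59.3) and 61.0% in C4 (1156 of 1895, 58.8 to 63.2). The intervals of C3 and C4 overlap. Ighv5 followed with 7.53% in C3 and 7.49% in C4, and with 10 of 62 barcodes in C1 (16.1%, 8.02 to 27.7).

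Ighv1-26 was the commonest heavy gene in both large B sets. It lies on chromosome 12 at 114788372 to 114788665 of mm10, 1369.5 kb from Ighm. It led 48 of 677 barcodes in C3 (7.09%, 5.27 to 9.29) and 130 of 1895 in C4 (6.86%, 5.76 to 8.09), but 2 of 62 in C1. The next genes were Ighv3-6 (5.02%), Ighv1-18 (4.43%) and Ighv1-64 (4.14%) in C3, and Ighv1-18 (4.17%), Ighv1-64 (3.96%) and Ighv3-6 (3.48%) in C4. The same 4 genes thus headed both lists, and the intervals of each gene overlapped between C3 and C4. In C1 the commonest was Ighv5-17, with 5 of 62 barcodes (8.06%, 2.67 to 17.8), and then Ighv3-6 with 4.

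Across genes the C3 and C4 shares lay close together. In C3 86 heavy genes led a B barcode, in C4 101, and 84 did so in both. Over the 103 heavy genes that led in either, Pearson's r of the shares was 0.944 and Spearman's rho 0.900; over 89 kappa genes r was 0.920 and rho 0.854. These are descriptions across genes, which are not independent replicates and which share the annotation and the assay. Of all pairs of B barcodes in a library, 2.16% in C3 and 2.18% in C4 had the same leading heavy gene, and 2.43% and 2.29% the same light gene.

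**Figure D3:**
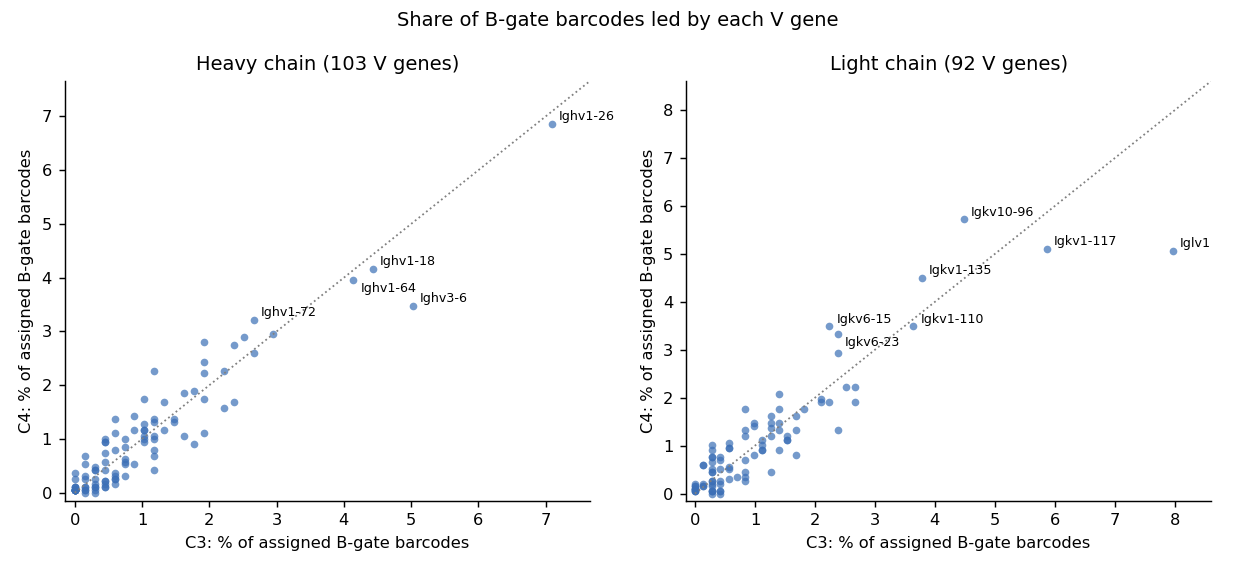
Share of assigned B barcodes led by each V gene in C3 (x) and C4 (y), in percent, for heavy (left, 103 genes) and light chains (right, 92 genes); the dotted line marks equal shares. Ighv1-26 lies at 7.09% and 6.86%, and Iglv1 lies below the line at 7.97% and 5.06%.

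Kappa genes led most light-assigned B barcodes. In C3 the commonest kappa genes were Igkv1-117 (42 of 715, 5.87%), Igkv10-96 (32, 4.48%) and Igkv1-135 (27, 3.78%). In C4 they were Igkv10-96 (113 of 1977, 5.72%), Igkv1-117 (101, 5.11%) and Igkv1-135 (89, 4.50%). The same genes led in both, in another order. Igkv10-96 lies on chromosome 6 at 68631965 to 68632430 and Igkv1-117 at 68121091 to 68121825. In C1 Igkv1-110 and Igkv14-111 led 5 of 65 barcodes each. By family, Igkv1 and Igkv4 led 14.8% and 15.1% in C3, and Igkv1, Igkv6 and Igkv4 led 14.5%, 12.8% and 11.6% in C4.

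Lambda genes, which mice use far less than kappa, led 78 of 715 light-assigned B barcodes in C3 (10.9%, 8.72 to 13.4), 150 of 1977 in C4 (7.59%, 6.46 to 8.84), 5 of 65 in C1 (7.69%, 2.54 to 17.0) and 0 of 9 in C2. The upper bound of C4 just passes the lower bound of C3. Iglv1, on chromosome 16 at 19085017 to 19085460, led 57 in C3 and 100 in C4. Iglv2 led 12 and 26, and Iglv3 led 9 and 24. Among plasma barcodes lambda led 1 of 44 (C1), 2 of 22 (C2), 0 of 46 (C3, which allows up to 7.71%) and 0 of 5 (C4), and all 3 of these were led by Iglv1.

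Iglv1 and Iglv2 are close in sequence, so the assignment of UMIs between them is uncertain. A second light gene with at least 2 UMIs and at least 25% of the first was found in 18.3% of C3 and 21.3% of C4 light-assigned B barcodes, and a second heavy gene in 9.60% and 11.9% of heavy-assigned ones. By this rule the most frequent light combinations over all libraries were Iglv1 with Iglv2 (22 barcodes) and Iglv1 with Iglv3 (21). Of the barcodes with a second light gene, 29 of 131 in C3 and 60 of 421 in C4 held 1 kappa and 1 lambda gene. No barcodes were removed as doublets, and their part in these counts was not tested.

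In plasma barcodes the leading gene held nearly all V UMIs of its chain, with a median of 100% for heavy chains in C1, C2 and C3 and of 98.1% to 99.2% for light chains. No plasma barcode of C1, C2 or C3 had a second heavy gene at 25% of the first. For light chains, 6 plasma-gate barcodes had a first gene above 1000 UMIs and a second at 25% or more of it. Examples in C3 were Igkv16-104 with 12171 UMIs beside Iglv1 with 10295, and Igkv4-59 with 9659 beside Igkv8-28 with 9152. In C1 the case was Igkv17-127 with 7416 beside Igkv6-17 with 6361.

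The barcode with Igkv4-59 and Igkv8-28 also stood apart in its heavy chain. It had 17 heavy V UMIs, all of Ighv2-9-1, and 18 UMIs of its leading heavy constant gene Ighg2b, beside 19352 light V UMIs and 2038 Igkc UMIs. With 451 Jchain and 2 Sdc1 UMIs it was a plasma-gate barcode rich in light-chain RNA and poor in heavy-chain RNA, and it was singled out after its values were seen.

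Iglv1 UMIs were also common in kappa-led plasma barcodes. They were found in 41 of 43 such barcodes in C1 (median 44), 20 of 20 in C2 (median 100) and 40 of 46 in C3 (median 35), but in 0 of 5 in C4. They made up 0.833%, 1.13% and 4.11% of the light V UMIs of these barcodes, the last including the barcode with 10295. In kappa-led B barcodes Iglv1 was found in 4 of 60 in C1, 58 of 637 in C3 (9.11%) and 124 of 1827 in C4 (6.79%), with a median of 0 in each.

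Levels of a leading gene differed between genes, in a similar order in both large sets. In B barcodes led by an Ighv1 gene the median was 10 UMIs of that gene in C3 and 8 in C4, and in those led by an Ighv5 gene 15 and 13. Igkv1 genes had medians of 44 and 36, and Igkv4 genes of 20 and 17. Single genes ranged more widely: Ighv1-18 stood at 8.5 and 6, Ighv1-26 at 9.5 and 8, and Ighv9-3 at 17 and 12. Among light genes Igkv10-96 stood at 27 and 25, Igkv1-117 at 56.5 and 43, and Igkv6-15 at 66.5 and 51. Across genes that led at least 5 barcodes in each library, rho between C3 and C4 was 0.695 over 49 heavy genes and 0.846 over 44 kappa genes. Length and mapping of each gene enter these UMI counts, so they order genes within these libraries and not their transcription.

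Use was spread along both loci. The 181 placed heavy genes were divided into 4 near-equal groups by distance from Ighm on chromosome 12. The nearest group (154 to 688 kb) supplied 19.5% of assigned C3 B barcodes (16.6 to 22.7) and 17.4% in C4 (15.7 to 19.2). The farthest (1789.3 to 2590.8 kb) supplied 30.9% (27.4 to 34.5) and 35.5% (33.4 to 37.7). The farthest group was thus used more than the nearest in both, with separate intervals. In plasma barcodes of C1 the nearest group led 3 of 44 (6.82%, 1.43 to 18.7) and the farthest 21 (47.7%, 32.5 to 63.3), while in C3 they led 12 and 14 of 46.

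Kappa genes showed another shape. By distance from Igkc on chromosome 6, the nearest group (22.9 to 826 kb) led 29.4% of kappa-led C3 B barcodes and 32.5% in C4, and the farthest (2260.3 to 3170.8 kb) 29.7% and 30.6%. The middle groups led 22.8% and 18.2% in C3, and 17.9% and 19.0% in C4. In C4 the intervals of both outer groups (30.4 to 34.7 and 28.5 to 32.8) lay above those of both middle groups (16.2 to 19.7 and 17.2 to 20.9). In C3 the nearest group (25.8 to 33.1) overlapped slightly with the second (19.6 to 26.2).

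**Figure D4:**
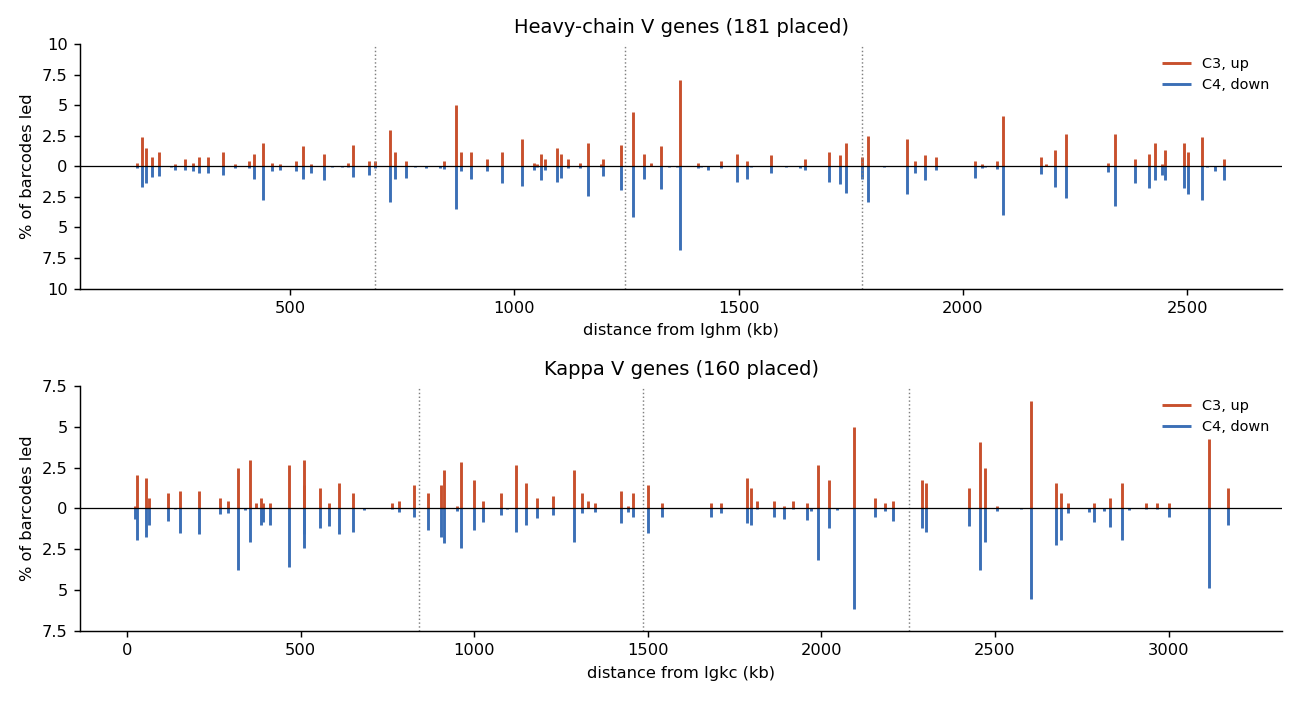
Share of B barcodes led by each placed V gene (y, percent of those led by a placed gene of the locus) against distance from the constant gene in kb (x), for 181 heavy genes (top) and 160 kappa genes (bottom); C3 points up, C4 points down, and dotted lines divide the genes into 4 groups. The tallest heavy bar in both libraries is Ighv1-26 at 1369.5 kb.

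Class-switched B barcodes, those with more UMIs of Ighg, Ighe and Igha genes than of Ighm and Ighd, were 91 of 759 in C3 (12.0%), 66 of 2024 in C4 (3.26%) and 10 of 66 in C1 (15.2%). The rule set no minimum, so a single UMI could decide a barcode. In C1 Igha was found in 12.1% of B barcodes, and in 7.96% of macrophage-reference barcodes outside a set of 27, both defined below. The part of background Igha in the C1 share was not tested. Ighv1 genes led 63.8% of the heavy-assigned switched barcodes in C3 (52.2 to 74.2) and 54.3% of the IgM or IgD ones (50.1 to 58.3); in C4 the shares were 64.3% (50.4 to 76.6) and 60.9% (58.6 to 63.2). Lambda led 5 of 89 switched barcodes in C3 (5.62%, 1.85 to 12.6) and 71 of 615 IgM or IgD ones (11.5%, 9.13 to 14.3). All these intervals overlap within a library. Switched barcodes held more light V UMIs, with a median of 81 against 36 in C3 and 45.5 against 33 in C4. Their heavy V medians differed little, at 13 against 11 in C3 and 11 against 10 in C4. They were also deeper, with median totals of 15518 against 5147 and 10675 against 3945.5 UMIs, and the light V medians are not scaled to depth.

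Plasma barcodes differed in their constant gene. Igha, the constant gene of IgA, the antibody of mucosal secretions, led in all 44 plasma barcodes of C1 and all 22 of C2. In C3 Ighg1 led 15, Igha 13, Ighg2b 11, Ighg2c 5, and Ighe and Ighm 1 each; of the 7 with at least 10 Ms4a1 UMIs, 6 were led by Ighg1 and 1 by Ighm. The heavy V genes behind these were varied. The 44 barcodes of C1 used 29 heavy and 27 light genes, the 22 of C2 used 20 and 16, and the 46 of C3 used 35 and 24.

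Ighv1 genes led 27 of 44 plasma barcodes in C1 (61.4%, 45.5 to 75.6), 13 of 22 in C2 (59.1%, 36.4 to 79.3) and 25 of 46 in C3 (54.3%, 39.0 to 69.1). The 25 of C3 included all 7 with at least 10 Ms4a1 UMIs, so the Ighv1 share among the other C3 plasma barcodes was lower. In C1 the commonest heavy genes were Ighv3-6 (5 barcodes, 4128 to 8593 UMIs each) and Ighv1-39 (4 barcodes, 344 to 9925). The commonest light genes in C1 were Igkv6-15 (5, with 7534 to 19152 UMIs) and Igkv1-110 (4). In C2 Ighv1-26 and Ighv9-3 led 2 each, and Igkv4-74 led 3. In C3 Ighv1-9 led 3, with 75, 88 and 15217 UMIs, the lower values both in barcodes with at least 10 Ms4a1 UMIs, and Igkv1-110 led 5. No heavy gene led more than 5 barcodes in any of these sets.

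Some plasma barcodes shared both V genes, as members of a clone would, although sharing V genes does not establish a clone without the junction sequence. In C1 3 pairs occurred in 2 barcodes each: Ighv1-39 with Igkv1-110, Ighv1-76 with Igkv6-17, and Ighv3-6 with Igkv6-15, all led by Igha. In C3 4 pairs occurred in 2 barcodes each. Ighv1-78 with Igkv1-110 and Ighv5-6 with Igkv4-55 were led by Ighg1 in both barcodes. Ighv3-1 with Igkv4-72 was led by Igha in 1 and Ighg1 in the other, and so was Ighv1-55 with Igkv6-23, where the Ighg1 barcode held 16 Ighv1-55 UMIs and many of Ms4a1. The 22 barcodes of C2 held 22 different pairs.

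Pairs repeated more often in the larger B sets, in which chance repeats grow with the number of barcodes. In C3 78 of 572 pairs occurred more than once and covered 178 of 672 barcodes; in C4 it was 350 of 1311 pairs and 912 of 1873 barcodes. The share of barcode pairs with the same heavy and light gene was 0.0590% in C3 and 0.0516% in C4, against 0.317% in plasma barcodes of C1 and 0.386% in C3. The plasma shares rest on only 3 and 4 repeated pairs, have no interval and were not tested against the B shares. The commonest B pairs joined frequent genes, such as Ighv1-26 with Igkv1-135, found in 7 barcodes of C3 and 7 of C4, all led by Ighm or Ighd. A pair that differed was Ighv1-22 with Igkv6-23 in C4, noticed in the data, with 4 of its 6 barcodes led by Ighg1 and 2 by Ighm.

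Few pairs recurred between plasma sets of different libraries. Ighv1-69 with Igkv17-121 was found in plasma barcodes of C1 (1 of 41 pairs) and C3 (1 of 42), and also in a B barcode of C3. Ighv7-3 with Igkv10-96 was found in plasma barcodes of C2 (1 of 22 pairs) and C3, and in B barcodes of C3 and C4. Of the 572 B pairs of C3, 11 were among the 42 plasma pairs of C3, 11 among the 41 of C1 and 6 among the 22 of C2, so sharing with B pairs was not limited to the same library. Ighv11-2 with Igkv14-126, a combination known from B-1 cells that bind phosphatidylcholine, occurred in 1 B barcode each of C1, C3 and C4, always with Ighm leading, and another Ighv11-2 barcode of C3 was led by Iglv1. Ighv12-3 with Igkv4-91, also known from such cells, occurred in 0 B or plasma barcodes of any library.

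V UMIs also lay in barcodes outside the gates. The V gene with most of them differed between C1, C2 and C3, while others recurred, such as Igkv10-96 among the first 3 in C2 (684 low-depth UMIs) and C3 (313), and Iglv1 in C1 (1073) and C4 (11). The background was read from barcodes of 50 to under 200 UMIs, called low-depth here, and from T-reference barcodes: kept, with at least 3 Cd3d, Cd3e and Cd3g UMIs, fewer than 3 Cd79a plus Cd79b and fewer than 50 Jchain. Any V UMI was found, from C1 to C4, in 24.1% (252 of 1047), 12.5% (441 of 3520), 25.9% (1917 of 7412) and 4.73% (177 of 3743) of T-reference barcodes, at median depths of 6232, 5011, 8283.5 and 6111 UMIs. In B barcodes the shares were 100%, 78.6%, 96.3% and 99.1%, at median depths of 4604.5, 5148.5, 5573 and 3976. After thinning each barcode to 2000 UMIs the T-reference shares were 10.0%, 5.16%, 10.7% and 1.72%, with 11, 111, 79 and 30 shallower barcodes left out. At this depth the intervals of C1 (8.28 to 12.0) and C3 (9.99 to 11.4) overlapped, and C4 was lowest.

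A single kappa gene gave between 31.3% and 32.6% of the low-depth V UMIs in each of C1, C2 and C3. In C1 it was Igkv12-44 (chromosome 6, 69814631 to 69815100), with 3881 of 12183 V UMIs (31.9%). In C2 it was Igkv15-103 (chromosome 6, 68437468 to 68437925), with 2604 of 8313 (31.3%). In C3 it was Igkv4-62 (chromosome 6, 69399812 to 69400344), with 1234 of 3786 (32.6%). In C4 Iglv1 and Igkv3-4 came first, with 11 of 158 each.

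These genes led few or no plasma barcodes. Igkv12-44 led 0 of the 44 plasma barcodes of C1, in which it had 18 UMIs in all, and its highest barcode held 0.988% of its 6784 UMIs. Igkv4-62 led 0 of 46 in C3, with 11 UMIs there, and its highest barcode held 0.226% of 7955. Igkv15-103 led 1 of 22 in C2, where 1 barcode with 3609 UMIs held 51.9% of 6957. The median gene that led a plasma barcode had 8.52 low-depth UMIs per 1000 UMIs in plasma barcodes in C1, 9.27 in C2 and 1.19 in C3, against 722 for Igkv15-103.

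**Figure D5:**
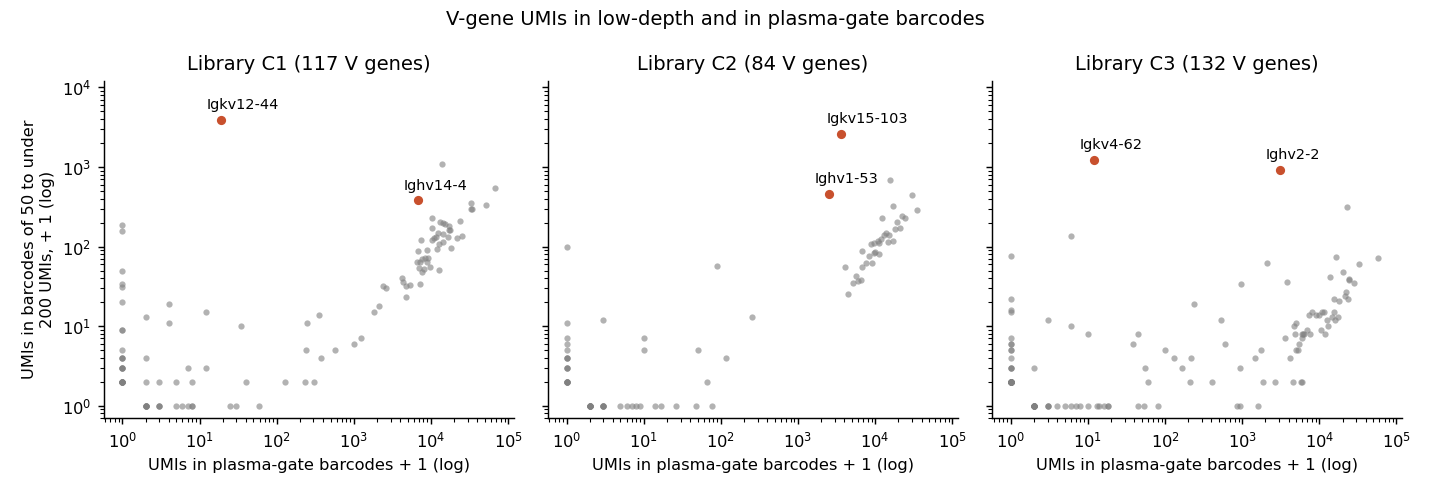
UMIs of each V gene in plasma-gate barcodes (x) against low-depth barcodes of 50 to under 200 UMIs (y), plus 1, on log axes, for C1 (117 genes), C2 (84) and C3 (132); orange marks the heavy and the light gene with most low-depth UMIs. Igkv12-44 in C1 and Igkv4-62 in C3 have 3881 and 1234 low-depth UMIs but 18 and 11 in plasma barcodes.

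The heavy V gene with most low-depth UMIs was also counted in the barcodes that held each kappa gene, which shows co-occurrence and not chain pairing. Among low-depth barcodes of C3 with Igkv4-62, 66.4% also held Ighv2-2 (386 of 581, 62.4 to 70.3), against 2.93% of the 3929 without it. In T-reference barcodes of C3 the shares were 55.5% (355 of 640) and 2.73%. Ighv2-2 (chromosome 12, 113588267 to 113588700) had 927 low-depth UMIs (24.5%) and led 1 plasma barcode of C3, with Igkv9-124. Of all UMIs of Igkv4-62 and Ighv2-2 in C3, 67.2% and 45.5% lay in barcodes of fewer than 50 UMIs.

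In C2 Ighv1-53 was found in 6.06% of low-depth barcodes with Igkv15-103 (129 of 2127) and in 0.476% of the others. These genes also led 1 plasma barcode of C2 together, with 2509 Ighv1-53 and 3609 Igkv15-103 UMIs and Igha in the lead. In C1 Ighv14-4 was found in 1.43% of low-depth barcodes with Igkv12-44 (49 of 3418) and in 0.618% of the others, a smaller difference with separate intervals (1.06 to 1.89 and 0.552 to 0.690). Of the 8030 Ighv14-4 UMIs in C1, 6881 (85.7%) lay in 1 plasma barcode, whose light chain was led by Igkv4-50.

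In kept barcodes of C1, Igkv12-44 and Ighv14-4 were concentrated in a set of 27, picked after their values were seen by at least 5 UMIs of both. They held 16 to 67 Igkv12-44 UMIs (median 34) and 6 to 39 Ighv14-4 UMIs (median 17), at a median depth of 5761 UMIs, and at most 6 UMIs of all other V genes. All 27 were in the macrophage reference, defined by at least 3 UMIs of C1qa, C1qb and Csf1r with the same limits on Cd79 and Jchain. Of the 3105 macrophage-reference barcodes 2658 had no Igkv12-44 UMI, 252, 85, 46 and 16 had 1, 2, 3 and 4, 12 had 5, 5 had 6, 1 each had 8, 9, 10 and 11, 0 had 12 to 15, and 27 had 16 or more. The 27 are the set.

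The set differed from the other 3078 macrophage-reference barcodes in more than V genes. Jchain was found in 26 of 27 (median 5 UMIs) against 7.18%, and Igha in 24 of 27 against 7.96%. Mzb1 had 0 UMIs in the set and only 14 in all of the other 3078, too few to tell them apart. At least 3 Cd3 UMIs were found in 16 of 27 (59.3%) against 5.04%. Its median of C1qa, C1qb and Csf1r UMIs was 29 against 70. No B-gate or plasma-gate barcode of C1 belonged to the set, and the source of these UMIs was not tested.

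These genes also led some B barcodes. In C3 Ighv2-2 led 16 B barcodes, 7 of them with fewer than 5 UMIs, and Igkv4-62 led 3, of which 2 had fewer than 5. In C1 Igkv12-44 led 1 B barcode and Ighv14-4 led 0. In C2 Ighv1-53 led 2 and Igkv15-103 led 0.

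Other genes of antibody production differed in how their levels compared between gates. Jchain, which the gates used, stood at 54865.7, 54533.6, 18343.5 and 1273.6 CPM in plasma barcodes of C1 to C4. Xbp1, the transcription factor of the secretory programme, stood at 1248.8, 1520.9, 1525.9 and 121 CPM in plasma barcodes and at 71.5, 153, 77.4 and 67.7 in B barcodes. Pou2af1, the coactivator that acts with octamer-binding factors on V promoters, stood at 155, 274, 293 and 661 CPM in plasma barcodes of C1 to C4 and at 148, 71.6, 297 and 187 in B barcodes. Its CPM in the gates lay close together in C1 and C3, and was higher in plasma than in B barcodes in C2 and C4. The CPM total includes V UMIs, which took 50.7%, 54.0%, 37.1% and 0.538% of plasma UMIs from C1 to C4. This share lowers the CPM of all other genes in plasma barcodes. Pou2af1 was detected in 93.2% of plasma and 53.0% of B barcodes in C1, and in 97.8% and 63.4% in C3. Plasma barcodes were also deeper, so like CPM does not mean like amounts per barcode. The recombination genes Rag1 and Rag2 had 0 CPM in all sets except B barcodes of C4, at 0.412 and 0.103, and of the surrogate light-chain genes Igll1 and Vpreb2 had none, while Vpreb1 had 2.41 CPM in plasma barcodes of C2, 0.63 in B barcodes of C3 and 0.206 in those of C4.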

How the data were processed

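The deposited values are whole-number UMI counts per gene and barcode, not normalized and not restricted to cells; the matrices were written by Cell Ranger 4, per the file headers. Cell Ranger 6.1.2, STAR 2.7.10a and the build mm10 are named in the submitters' processing notes. The labels' protocols name BD Rhapsody and the design text 10x, and the barcodes have 16 bases. Library totals were 48439860 (C1), 44798843 (C2), 77819179 (C3) and 37902916 (C4) UMIs. The T cell receptor libraries were not analysed here.

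V genes were matched by symbol, and 344 of 348 were placed through the RefSeq table of the mm10 build, which gives the positions printed. Gates and leading genes are defined in the report. Multi-mapping of similar V genes and V alleles of other strains can move UMIs between members; their effect was not tested, and no doublet caller was run. Genes named were, in each library and gate with at least 20 assigned barcodes, the 5 heavy and 5 light genes leading most barcodes, the 3 genes with most low-depth UMIs in each library, and the Iglv genes; pair members and others outside this rule were chosen after their values were seen. Members and lists were chosen with earlier results of these data known. CPM is UMIs per 1000000 UMIs of a gate.

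Analyses used Python 3.11.15, numpy 2.4.6 and scipy 1.17.1. On simulated barcodes with known V genes and each library's low-depth profile, 96.7% of C3 and 97.0% of C4 heavy chains were assigned, 100% of these correctly. The simulation gave each barcode a single heavy and a single light gene over a low background. Its V levels came only from B barcodes with both chains assigned, which favours correct assignment. Its background was drawn gene by gene at the mean T-reference rate, without the co-occurrence of V genes seen in the data. It held no multi-mapping, doublets or second genes either, so it cannot measure errors that come from any of these. Alternatives were the depth, mitochondrial and gate limits, the rule for a leading gene, removal of barcodes with Cd3 UMIs and thinning. Leaving out Ms4a1-rich plasma barcodes, the leading low-depth genes and the 27 barcodes of C1 was chosen after seeing the data. V gene sequences were not used here. Some genes of the marker and pathway lists are not reported here.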

Additional observations from a re-analysis of the deposited data

Results flagged for a closer look

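In C1 1 barcode that failed the minimum of 300 genes held 502 V UMIs among 773 UMIs in all, and drew attention because no other barcode outside the kept set, in any library, had 100 or more. It held 162 UMIs of Ighv1-42 and 340 of Igkv6-15, with 49 Jchain UMIs and 156 genes. The pair Ighv1-42 with Igkv6-15 also led a plasma barcode of C1. Its source was not tested.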

How the results depend on the processing

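Of 333 recomputed values of main results 294 stayed within the counting interval of the reported value, or within 1.5 times for a count of pairs, and 39 moved; of 144 values of single genes 2 moved, both of Iglv1. Lists below run from C1 to C4 unless libraries are named. The share of B barcodes with both chains assigned was 83.3%, 76.7% and 79.0% in C1, C3 and C4 with a leading gene of at least 5 UMIs. It was 77.3%, 61.8% and 63.1% with a leading gene holding 80% of its chain, and 92.0% and 95.1% in C3 and C4 from 1 UMI. With Cd79a plus Cd79b of at least 6 it was 90.0%, 93.4% and 93.9% in C2 to C4, and without barcodes with 3 Cd3 UMIs 92.4% in C3. With the 80% rule it was 84.8% in C3 plasma barcodes, the lambda share of B barcodes was 8.3% in C3 and 5.68% in C4, and repeated B pairs numbered 48 and 217. The V share of plasma UMIs was 52.7%, 56.2% and 38.0% in C1 to C3 without barcodes with 3 Cd3 UMIs, 48.3% in C3 with Jchain of at least 100, and 46.8% in C3 and 1.45% in C4 without barcodes with 10 Ms4a1 UMIs, a setting added after seeing the data. T-reference barcodes with at least 2 V UMIs were 6.78%, 1.65%, 9.97% and 0.187%, and with any after thinning 10.0%, 5.16%, 10.7% and 1.72%. Macrophage-reference barcodes with at least 2 were 12.8%, 3.95% and 13.3% in C1 to C3, with any after thinning 12.6%, 4.59%, 7.79% and 0.0%, and with a minimum of 1000 UMIs 25.7% in C1. The causes of these shifts were not tested beyond what each setting leaves out. No paired analysis was possible because the libraries are tied to no sample and no group has more than 1 library. B barcodes of C2 (14) and plasma-gate barcodes of C4 (5) limit the precision most.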

Other observations

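A few kept barcodes outside both gates held many V UMIs. At least 100 were found in 2 barcodes of C1 (at most 102), 1 of C2 (624) and 2 of C3 (at most 252), and the highest in C4 had 51.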
